A study of Mus musculus with 6 samples.

Results

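The nuclear genes of the mitochondrial respiratory chain and ATP synthase were followed in mouse bone marrow cells with and without Dnmt3a, a de novo DNA methyltransferase. Members were taken by gene symbol: every row whose symbol starts with Nduf, Uqcr or Atp5, or with Cox and a digit of cytochrome c oxidase subunits 4 to 8, and the rows of Sdha, Sdhb, Sdhc, Sdhd and Cyc1. This gave 89 of 15139 rows, of which 43 belong to complex I, 4 to complex II, 9 to complex III, 16 to complex IV and 17 to complex V. Ndufa4, named as a complex I gene, was counted with complex IV, where its product is now placed. The rule uses no measured value, but this group of genes was picked with earlier results of these data known. Primary marrow of the genotypes MxCre+v Dnmt3a+/+ (WT) and MxCre+v Dnmt3a-/- (knockout) was held for 1 week in RPMI with 10% fetal bovine serum, interleukin 3 at 10 ng/ml and stem cell factor at 50 ng/ml. Both genotypes therefore carry Mx-Cre, an interferon-inducible recombinase used for deletion in blood cells, which also acts in other tissues. The WT group has 3 libraries. The labels list 3 knockout samples. Replicates 2 and 3 entered the tests, and replicate 1 is not analysed here. The labels call these samples knockout in one field and knockdown in another, and give no age. They do not say whether replicates are separate animals or cultures, so a p-value here reflects only how these samples vary, and that variation may be technical.

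The respiratory chain sits in the inner mitochondrial membrane. Complex I takes electrons from NADH and complex II from succinate, ubiquinone carries them to complex III, and cytochrome c carries them to complex IV, which reduces oxygen. Complexes I, III and IV pump protons, and complex V, the ATP synthase, lets them flow back to make ATP. Subunits come from both the nuclear and the mitochondrial genome, and the subunits of the mitochondrial genome were not analysed here. Macrophages and mast cells are known to shift between respiration and glycolysis as they are activated.

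Levels are FPKM, fragment counts divided by transcript length and by all mapped fragments, so they are on a scale per length and the depth of each library is unknown. FPKM summed to 560387 to 604368 per library, and 11038 to 11090 genes reached 1 FPKM. Dnmt3a itself (gene 13435) stood at 6.68, 9.99 and 9.04 FPKM in the WT libraries and at 2.58 and 3.42 FPKM in the knockout libraries. Both knockout libraries lay below every WT library (log2 change -1.25 ± 0.17 SE, limma adjusted p = 0.00279). The cultures differed in cell markers as well. Of 14 mast cell markers 10 rose and none fell, and their summed level was 15381 to 17515 FPKM in WT and 31118 to 35754 FPKM in knockout. Of 15 monocyte and macrophage markers none rose and 13 fell, with sums of 7173 to 9028 FPKM in WT and 2826 to 3118 FPKM in knockout. Of 13 neutrophil markers none rose and 11 fell, with sums of 23292 to 34327 FPKM in WT and 13346 to 17292 FPKM in knockout. No marker of these lists was at 0 in any library. In bulk RNA, fewer cells of a type and less RNA per cell cannot be told apart, and the part of cell composition in the results below was not tested.

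Averaged over both knockout libraries, the respiratory chain genes were, with few exceptions, slightly lower than in WT. The shift lay mainly in replicate 3, and in replicate 2 the median member was near the median of all tested genes. The summed level of the respiratory chain genes made up 2.25%, 2.22% and 2.22% of all FPKM in the WT libraries. In knockout replicates 2 and 3 it made up 2.13% and 1.78%. Of the 89 members, 87 reached 1 FPKM in at least 2 libraries and were tested with limma on log2(FPKM + 1), with p-values adjusted by the Benjamini-Hochberg method over all 11365 tested genes. At an adjusted p under 0.05, 15 members fell and 1 rose. Over all tested genes, 22.1% were called, 9.08% higher and 13% lower. The 15 members are 17.2% of those tested, so in the main test the share called lower stood only a little above the background. Under other scalings the order varied. The share was 8.05% against 10.6% of all tested genes with median-of-ratios scaling and 6.90% against 10.0% with upper-quartile scaling. It was 19.5% against 11.3% with total FPKM scaling and 12.6% against 10.5% with quantile normalization. The direction was more uniform than the calls: 76 of the 87 log2 changes were negative, against 6474 of the 11365 tested genes. Under the 4 other scalings 71 to 75 members were negative, and 56 were without knockout replicate 3. For these settings negative changes were counted for members only. The 56 therefore cannot be set against all tested genes, and a clear excess is not shown there. The median change of members was -0.22, against -0.04 over all tested genes. Both knockout libraries lay below all WT libraries for 42 members (48.3%), against 30.8% of all tested genes. Both lay above all WT libraries for 2 members, Cox6b2 and Cox7a2l, against 20.4% of all tested genes. The falls of the 15 called members were modest, from 17.2% to 32.0% of the WT mean FPKM, with adjusted p from 0.00229 to 0.0495.

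**Figure D1:**
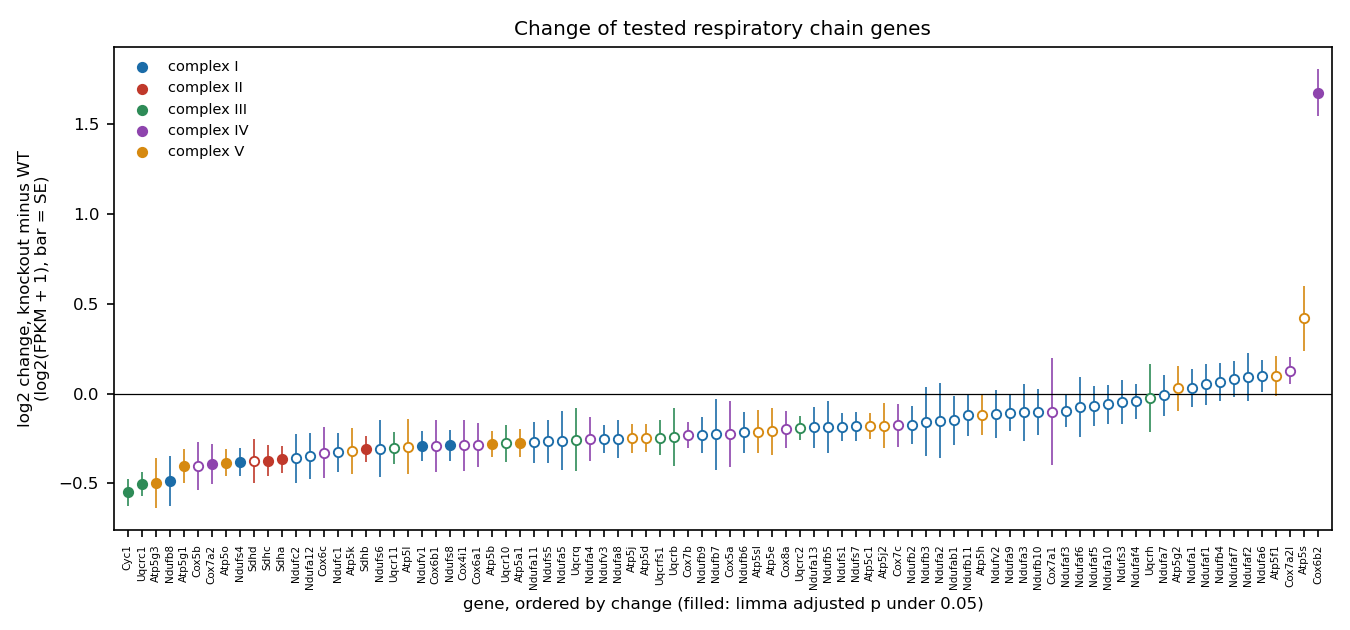
The log2 change (knockout minus WT, on log2(FPKM + 1)) of 86 of the 87 tested genes with its standard error, ordered by change and coloured by complex, with filled points for genes called by limma. Most points lie between -0.55 and 0.13, Cyc1 and Uqcrc1 are at the low end, and Cox6b2 stands alone at 1.68.

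How many members were called depended on single libraries. With WT replicate 1, 2 or 3 left out, 5, 4 and 3 members were called lower. These are 5.75%, 4.60% and 3.45% of members, against 10.2%, 8.39% and 9.10% of all tested genes. With knockout replicate 2 left out, the median log2 change of members was -0.36, against -0.04 over all tested genes. With knockout replicate 3 left out, it was -0.06, against -0.05. Each of these last fits, here and for single genes below, holds 1 knockout library, which is assumed to vary as the WT libraries do. Sex was read from the gene Xist alone, with a cut at 1 FPKM. WT replicate 1 and both knockout libraries were taken as male, and WT replicates 2 and 3 as female. With sex as a covariate 3 members were called lower, Cyc1, Uqcrc1 and Atp5g1. They are 3.45% of members, against 6.97% of all tested genes. In that fit the genotype change rests on WT replicate 1 alone on the WT side. Cox6b2 (higher), Cyc1 and Uqcrc1 (lower) were called in the main test and under all 15 alternatives run.

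The knockout libraries differed from each other across the respiratory chain. The median member stood 0.06 below the WT mean in knockout replicate 2 and 0.36 below it in knockout replicate 3 on the log2(FPKM + 1) scale. The WT libraries stood at 0.03, -0.01 and -0.02. Over all tested genes the median deviation was -0.05 in knockout replicate 2 and -0.04 in replicate 3. Knockout replicate 3 was below all WT libraries for 76 of the 87 members, against 4886 of 11365 tested genes. Knockout replicate 2 was below them for 43 members, against 4935 tested genes. It was above all WT libraries for 21 members, against 3242 tested genes. The counts of replicate 2 were thus near the share of all genes. In 79 of the 87 members replicate 3 was lower than replicate 2, against 5117 of the 11365 tested genes. In knockout replicates 2 and 3, the median deviation from WT was 0.90 and 1.06 for mast cell markers and -1.41 and -1.71 for monocyte and macrophage markers. For neutrophil markers it was -0.705 and -0.998. The part of these markers in the gap between the replicates was not tested.

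**Figure D2:**
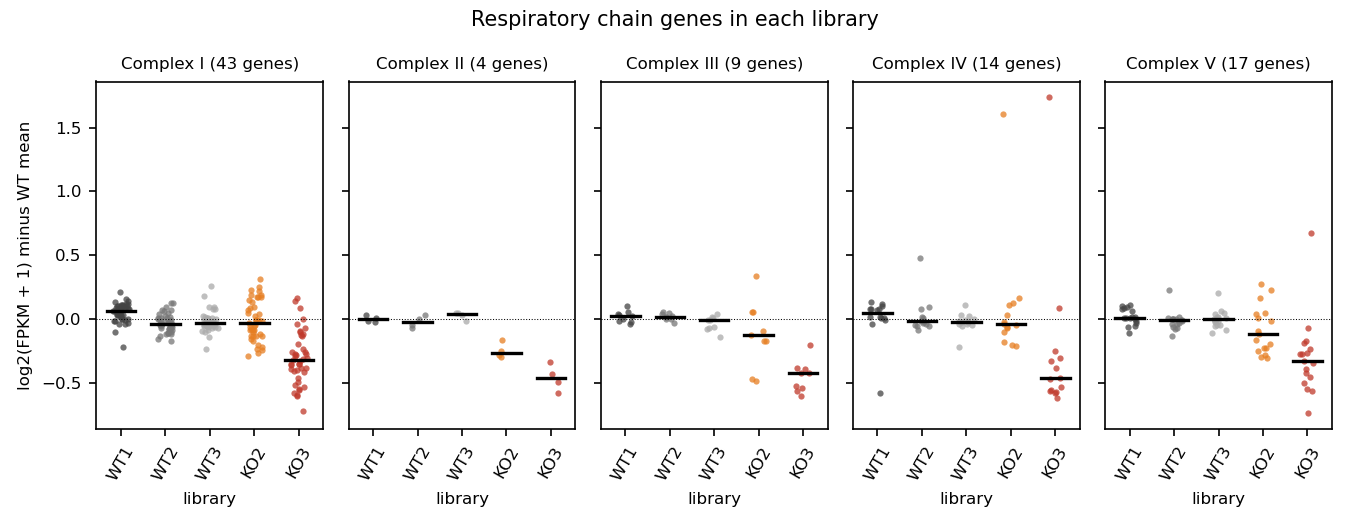
Each point is 1 gene in 1 library, as log2(FPKM + 1) minus the mean of the WT libraries, in a panel per complex, with a black bar at the median. The bar of knockout replicate 3 lies between -0.32 and -0.47 in every complex, and that of replicate 2 between -0.03 and -0.27.

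The gap between the replicates was not the same for each complex. In complex II the medians were -0.27 and -0.46 for knockout replicates 2 and 3, so both libraries were clearly below WT. In complex III they were -0.13 and -0.43, and in complex V -0.12 and -0.33. In complex I the medians were -0.03 and -0.32, and in complex IV -0.04 and -0.47, so there the median of replicate 2 was near the WT level.

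**Figure D3:**
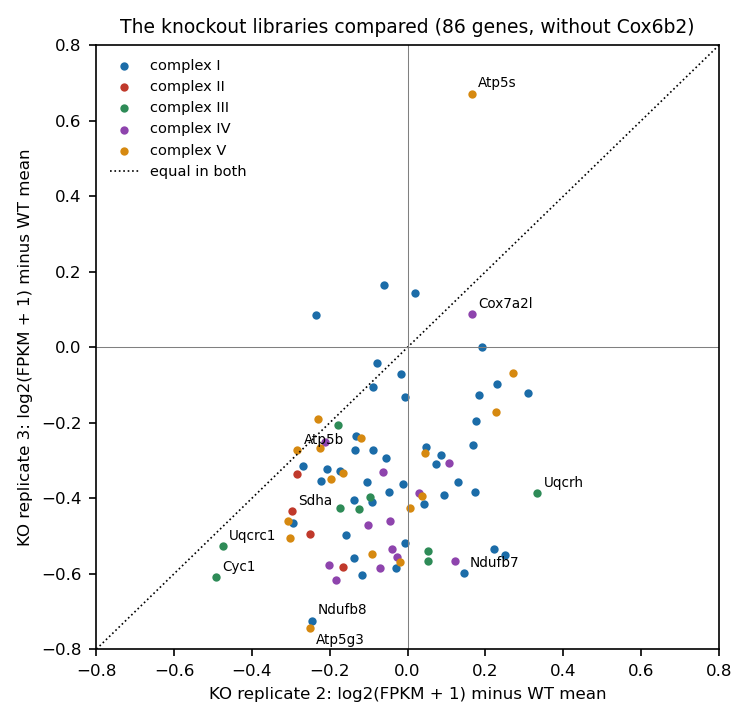
Deviation from the WT mean in knockout replicate 2 (horizontal) against knockout replicate 3 (vertical), in log2(FPKM + 1), for 86 tested genes without Cox6b2, coloured by complex, with a dotted line of equal values. Most points lie below the line, and Cyc1 and Uqcrc1 are lowest on the horizontal axis at -0.49 and -0.47.

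Complex I, the NADH dehydrogenase, had 4 called members of 43, all lower, and a median log2 change of -0.17. Its share called lower was 9.30%, below the 13% of all tested genes. The called genes were Ndufv1 and Ndufs8 among the 7 core subunits, which carry out catalysis, and Ndufb8 and Ndufs4 among the 29 accessory subunits. Ndufs4 (gene 17993, chr13:114287795-114388094), an accessory subunit known from inherited complex I deficiency, stood at 31.38, 32.64 and 32.81 FPKM in WT and at 26.11 and 23.10 FPKM in knockout. Both knockout libraries were below the lowest WT library (log2 change -0.38 ± 0.08 SE, adjusted p = 0.0155). Leaving out WT replicate 2 or WT replicate 3 gave adjusted p of 0.0613 and 0.0603. Ndufb8 (gene 67264, chr19:44548571-44555442), of the membrane arm, stood at 161.64, 165.69 and 147.30 FPKM in WT and at 133.07 and 95.21 FPKM in knockout. Its groups did not overlap, but knockout replicate 3 was far below replicate 2 (log2 change -0.49 ± 0.14 SE, adjusted p = 0.0464). The Ndufb8 call was lost when WT replicate 1 (adjusted p = 0.103), 2 (0.127) or 3 (0.0743) or knockout replicate 3 (0.11) was left out.

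Of the 7 core genes of complex I, 2 were called, both lower (28.6%, against 13% of all tested genes), and both were near the threshold. Ndufv1 (gene 17995, chr19:4007499-4012755), which binds NADH and the flavin, stood at 49.24, 42.13 and 46.10 FPKM in WT and at 37.81 and 36.55 FPKM in knockout. Ndufs8 (gene 225887, chr19:3908863-3912774), an iron-sulfur subunit, stood at 72.07, 64.40 and 64.32 FPKM in WT and at 57.11 and 52.09 FPKM in knockout. Both genes had a log2 change of -0.29, with adjusted p of 0.0488 and 0.0495. Ndufv1 lost its call when any of the 5 libraries was left out (adjusted p = 0.055 to 0.138). Ndufs8 lost it when any library but knockout replicate 2 was left out (0.0995 to 0.154). Of the other core genes, Ndufs1 and Ndufs7 each had a log2 change of -0.18, with adjusted p of 0.145 and 0.166. Ndufv2, at 58.13, 58.36 and 57.84 FPKM in WT, stood at 63.68 FPKM in knockout replicate 2 and at 45.16 FPKM in replicate 3, on either side of WT. Ndufs3 did likewise, with 61.44 to 65.67 FPKM in WT, then 71.55 and 52.94 FPKM in knockout.

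Among accessory subunits of complex I the highest in WT was Ndufb7, at 210.86, 186.79 and 195.35 FPKM. It stood at 218.35 FPKM in knockout replicate 2 and at 130.10 FPKM in replicate 3, the highest and the lowest of the 5 libraries (adjusted p = 0.459). The accessory subunits had a median of -0.01 in replicate 2 and -0.38 in replicate 3. Of these 29 genes 2 were called, both lower (6.90%, against 13% of all tested genes). The 7 Ndufaf genes, whose products help to assemble complex I and are not part of the finished enzyme, had no call by limma (0 at an unadjusted p under 0.05) and a median log2 change of -0.04. Their sum was 54.78 to 55.76 FPKM in WT and 55.80 and 54.56 FPKM in knockout. Ndufaf5, the lowest complex I member, stood at 2.91 to 3.14 FPKM in WT and at 2.99 and 2.66 FPKM in knockout.

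Complex II, succinate dehydrogenase, is both a respiratory complex and an enzyme of the citric acid cycle, and all its subunits are nuclear. It was the complex with the lowest median, -0.37, and 3 of its 4 genes were called lower (75%, against 13% of all tested genes). Sdha (gene 66945, chr13:74322255-74350240), the flavoprotein that oxidises succinate, stood at 87.69, 89.51 and 91.10 FPKM in WT and at 72.62 and 65.89 FPKM in knockout. The WT libraries were close to each other and both knockout libraries lay below them (log2 change -0.37 ± 0.07 SE, adjusted p = 0.0125). Sdhb (gene 67680, chr4:140961271-140979198), the iron-sulfur subunit, stood at 102.26, 95.07 and 103.09 FPKM in WT and at 81.97 and 79.03 FPKM in knockout. Its log2 change was -0.31 ± 0.07 SE, with an adjusted p of 0.0219 and knockout libraries that nearly coincided. Sdhc (gene 66052, chr1:171129157-171150640), a membrane anchor, stood at 95.30, 98.49 and 95.31 FPKM in WT and at 80.84 and 68.08 FPKM in knockout (log2 change -0.37 ± 0.09 SE, adjusted p = 0.0233). Sdhd (gene 66925, chr9:50596340-50603849), the other anchor, stood at 129.99, 125.12 and 133.46 FPKM in WT and at 115.20 and 86.13 FPKM in knockout. Its groups did not overlap and its log2 change was also -0.37, but with an SE of 0.12 its adjusted p was 0.0683.

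The complex II calls were lost in part when a library was left out. Sdha had adjusted p of 0.0551 without WT replicate 2 and 0.0569 without WT replicate 3. Sdhb had 0.0718, 0.0948 and 0.0556 without WT replicate 1, WT replicate 3 and knockout replicate 3. Sdhc had 0.0554, 0.0864 and 0.0709 without WT replicates 1, 2 and 3. Sdhd had an adjusted p of 0.00426 without knockout replicate 2, a fit that rests on the single knockout library left. The direction of all 4 genes was the same in each of these fits.

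Complex III, the cytochrome bc1 complex, had 9 negative log2 changes of 9, of which that of Uqcrh was positive when libraries were scaled by quantiles, upper quartiles or median ratios, a median of -0.26 and 2 calls. Those calls, Cyc1 and Uqcrc1, were the largest falls among the members. They are 22.2% of the complex III genes, against 13% of all tested genes called lower. Cyc1 (gene 66445, chr15:76343513-76346260), cytochrome c1, passes electrons to cytochrome c and stood at 94.72, 97.22 and 100.23 FPKM in WT and at 68.97 and 63.52 FPKM in knockout. Both knockout values were far below the narrow WT range (32.0% lower on average, log2 change -0.55 ± 0.07 SE, adjusted p = 0.00229). Uqcrc1 (gene 22273, chr9:108936648-108949641), a core protein, stood at 125.92, 120.12 and 122.08 FPKM in WT and at 88.01 and 84.81 FPKM in knockout. It was 29.6% lower on average (log2 change -0.50 ± 0.07 SE, adjusted p = 0.00249). For both genes the knockout libraries lay close together. Uqcrc2, the partner core protein, stood at 78.95, 81.32 and 79.45 FPKM in WT and at 70.53 and 69.08 FPKM in knockout, and did not pass (log2 change -0.19 ± 0.07 SE, adjusted p = 0.0795). Uqcrfs1, the Rieske iron-sulfur protein, had a log2 change of -0.25 and an adjusted p of 0.12. Uqcrh, the hinge protein and the most abundant complex III member, stood at 322.67, 324.57 and 302.38 FPKM in WT. It stood at 398.93 FPKM in knockout replicate 2 and at 241.84 FPKM in replicate 3, above and below all WT libraries. With knockout replicate 3 left out Uqcrh was called higher (log2 change 0.33, adjusted p = 0.0327), and with knockout replicate 2 left out it was called lower (log2 change -0.39, adjusted p = 0.015).

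Complex IV, cytochrome c oxidase, held the only called rise and 1 called fall among 14 tested genes, with a median of -0.24. Each is 7.14% of its tested genes, below the 9.08% called higher and the 13% called lower over all tested genes. The rise was Cox6b2 (gene 333182, chr7:4751792-4753094, minus strand), the isoform of subunit VIb known from testis. It stood at 3.72, 3.60 and 2.70 FPKM in WT and at 12.18 and 13.41 FPKM in knockout. The knockout libraries agreed closely with each other, and each was above every WT library. The mean rose from 3.34 ± 0.56 (SD, n = 3) to 12.8 ± 0.87 FPKM (SD, n = 2), a 3.83-fold ratio of means, with a log2 change of 1.68 ± 0.13 SE and an adjusted p of 0.000401. Under the 15 alternatives its log2 change ranged from 1.55 to 1.92 and its adjusted p from 0.000164 to 0.00568.

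Cox6b2 nevertheless remained a minor form. The ubiquitous Cox6b1 stood at 379.15, 374.14 and 376.32 FPKM in WT and at 369.78 and 255.88 FPKM in knockout, and was not called (log2 change -0.29 ± 0.15 SE, adjusted p = 0.205). The Cox6b2 share of the summed FPKM of both genes was 0.97%, 0.95% and 0.71% in WT and 3.19% and 4.98% in knockout. The neighbouring Suv420h2, which encodes a histone methyltransferase, did not move with it, at 20.16, 16.82 and 19.07 FPKM in WT and 14.10 and 17.18 FPKM in knockout (log2 change -0.24, adjusted p = 0.178). No other annotated gene overlaps the Cox6b2 span. Its upstream sequence is shown because it is the one member that rose. RefSeq, on GRCm38.p6, gives for the minus strand of chr7:4753095-4753225, directly before the annotated start, the 131 bases below, with CpG dinucleotides, the sites on which DNA methyltransferases act, in capitals.
Cox6b2: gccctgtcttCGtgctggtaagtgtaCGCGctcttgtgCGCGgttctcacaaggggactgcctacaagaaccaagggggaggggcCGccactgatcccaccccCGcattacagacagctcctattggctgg
The stretch holds 7 CpG dinucleotides, and the window of 250 bases before to 50 bases after the start holds 10, against a median of 20 over the 80 windows of members and 7 over all 32851 windows of the same length. DNA methylation was not measured in these libraries.

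The other tissue isoforms of complex IV were rare in both genotypes. Cox7a1, the heart and muscle form of subunit VIIa, stood at 2.12, 5.51 and 4.04 FPKM in WT and at 4.04 and 2.78 FPKM in knockout, with full overlap. Cox4i2, the lung isoform of subunit IV, stood at 0.32 to 0.39 FPKM in WT and at 0.43 and 0.20 FPKM in knockout. Cox6a2, the heart and muscle form of subunit VIa, was listed at 0 in WT replicates 1 and 3, at 0.41 FPKM in WT replicate 2 and at 0.13 and 0.11 FPKM in knockout. Cox4i2 and Cox6a2 were below the level required for a test.

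Cox7a2 (gene 12866, chr9:79755241-79771422), the common form of subunit VIIa, was the called fall of complex IV. It stood at 154.69, 156.13 and 151.67 FPKM in WT and at 133.81 and 103.02 FPKM in knockout, without overlap (log2 change -0.39 ± 0.11 SE, adjusted p = 0.0462). The Cox7a2 call was lost when WT replicate 1 (adjusted p = 0.101), 2 (0.125) or 3 (0.108) or knockout replicate 3 (0.0767) was left out. Its relative Cox7a2l, which joins complexes III and IV into supercomplexes, was higher in both knockout libraries, at 222.73, 207.93 and 204.92 FPKM in WT and 237.79 and 225.03 FPKM in knockout. Its groups did not overlap, but the log2 change of 0.13 ± 0.08 SE did not pass (adjusted p = 0.283). Cox7a2l made up 58.7%, 56.3% and 56.8% of the summed FPKM of Cox7a1, Cox7a2 and Cox7a2l in WT and 63.3% and 68.0% in knockout.

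The 11 ubiquitous subunits of complex IV were among the most abundant members and were all negative, with a median of -0.06 in knockout replicate 2 and -0.53 in replicate 3. Cox8a, the most abundant, stood at 545.12, 496.48 and 506.47 FPKM in WT and at 493.43 and 409.60 FPKM in knockout (adjusted p = 0.222). Cox4i1, whose product binds the mitochondrially encoded core, stood at 528.76, 487.33 and 486.39 FPKM in WT. In knockout replicate 2 it was at 486.69 FPKM, within the WT range, and in replicate 3 at 345.24 FPKM (adjusted p = 0.203, and 0.00766 without knockout replicate 2). Cox5a stood at 289.30 to 315.78 FPKM in WT, at 325.68 FPKM in knockout replicate 2, above every WT library, and at 201.63 FPKM in replicate 3, below every WT library. Cox5b stood at 297.59, 263.28 and 263.45 FPKM in WT and at 241.50 and 178.39 FPKM in knockout, and with a log2 change of -0.40 ± 0.13 SE missed the threshold (adjusted p = 0.0755).

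Complex V, the ATP synthase, had 5 calls among 17 genes, all lower (29.4%, against 13% of all tested genes), and a median of -0.25. Atp5b (gene 11947, chr10:128083307-128090388), the catalytic beta subunit and the most abundant complex V member, stood at 517.93, 521.99 and 529.41 FPKM in WT and at 429.69 and 432.69 FPKM in knockout. The knockout libraries were nearly equal and both below every WT library (log2 change -0.28 ± 0.07 SE, adjusted p = 0.0336). Atp5a1 (gene 11946), the alpha subunit, stood at 354.96, 352.16 and 352.57 FPKM in WT and at 307.95 and 276.85 FPKM in knockout (log2 change -0.27 ± 0.08 SE, adjusted p = 0.0462). All 5 genes of the F1 head were negative, with a median of -0.20 in knockout replicate 2 and -0.27 in replicate 3. Among them Atp5e, the epsilon subunit, stood at 378.81, 339.72 and 351.69 FPKM in WT, within that range at 358.23 FPKM in knockout replicate 2 and below it at 265.20 FPKM in replicate 3 (adjusted p = 0.308, and 0.0171 without knockout replicate 2). Atp5o (gene 28080, chr16:91925223-91931630), the stalk subunit that confers oligomycin sensitivity, stood at 171.87, 169.22 and 171.59 FPKM in WT and at 137.80 and 124.03 FPKM in knockout. It had the smallest adjusted p of complex V (log2 change -0.38 ± 0.07 SE, adjusted p = 0.011). Without WT replicate 3 the adjusted p of Atp5o was 0.0508. Atp5b lost its call without WT replicate 1, 2 or 3 (0.0959, 0.128 and 0.149), and Atp5a1 without each of those or knockout replicate 3 (0.0771 to 0.151).

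Subunit c, which forms the rotating ring in the membrane, is encoded by Atp5g1, Atp5g2 and Atp5g3, known to give the same mature protein after different import sequences are removed. Of these genes 2 were called lower. Atp5g3 (gene 228033, chr2:73908447-73912464) stood at 467.58, 464.07 and 473.24 FPKM in WT and at 393.04 and 279.37 FPKM in knockout (log2 change -0.50 ± 0.14 SE, adjusted p = 0.0415). Atp5g1 (gene 11951, chr11:96072793-96075694) stood at 160.28, 142.43 and 143.76 FPKM in WT and at 120.33 and 104.40 FPKM in knockout (log2 change -0.40 ± 0.09 SE, adjusted p = 0.0211). Atp5g2 stood at 328.33, 312.65 and 292.82 FPKM in WT and at 364.45 and 276.10 FPKM in knockout, on either side of WT (log2 change 0.03 ± 0.12 SE, adjusted p = 0.895, and -0.17 without knockout replicate 2). Atp5g2 supplied 34.3%, 34.0% and 32.2% of the summed FPKM of the 3 genes in WT and 41.5% and 41.8% in knockout. The share of Atp5g3 went from 48.9%, 50.5% and 52.0% in WT to 44.8% and 42.3% in knockout, without overlap. The difference in change between these genes was not tested. Atp5g3 lost its call without WT replicate 1, 2 or 3 (adjusted p = 0.0873, 0.103 and 0.111), and Atp5g1 without each of those or knockout replicate 3 (0.0528 to 0.0727).

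**Figure D4:**
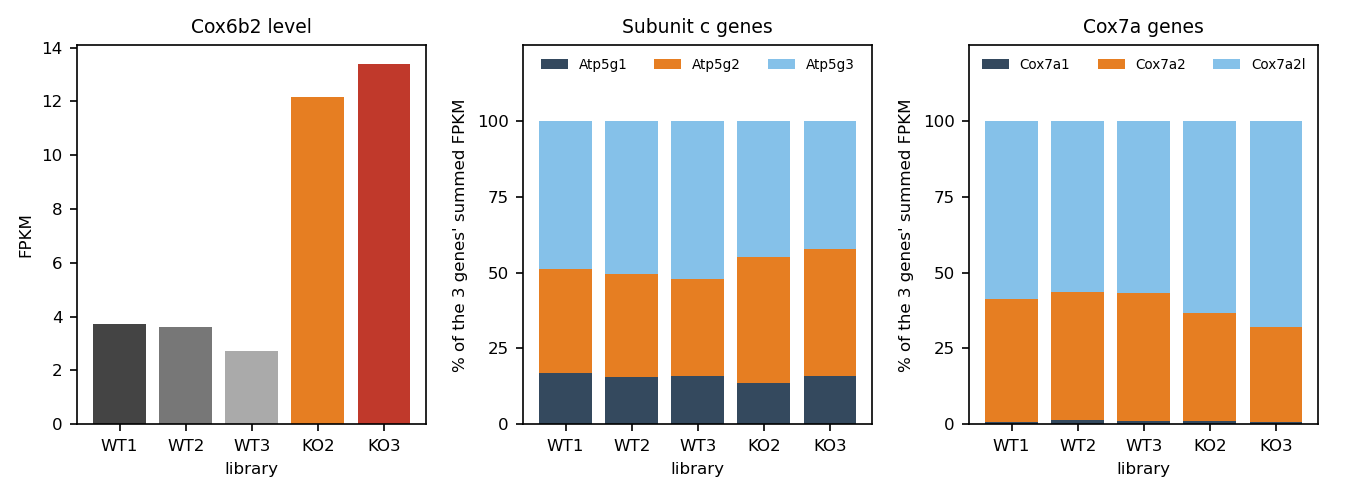
Left, FPKM of Cox6b2 in each library. Middle and right, the share of the summed FPKM of the subunit c genes and of the Cox7a genes that each gene supplied, in percent per library. Cox6b2 is at 2.70 to 3.72 FPKM in WT and at 12.18 and 13.41 FPKM in knockout, and the Atp5g2 and Cox7a2l shares are larger in both knockout libraries than in any WT library.

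A pair of complex V members is named for the enzyme without being subunits of it. Atp5s, coupling factor B, stood at 2.84, 3.85 and 2.85 FPKM in WT and at 3.66 and 5.62 FPKM in knockout. It had the second highest log2 change of the members but did not pass (0.42 ± 0.18 SE, adjusted p = 0.153, and called higher without knockout replicate 2, 0.0479). Atp5sl, known as an assembly protein of the complex I membrane arm, stood at 8.48 to 11.03 FPKM in WT and at 7.89 and 8.14 FPKM in knockout (adjusted p = 0.257).

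Around the chain, part of the genes that feed it electrons fell, and none of its regulators was called. Over all tested genes 13% were called lower, against 41.2% of the citric acid cycle list and 11.8% of the electron carrier list below. The share of electron carriers was thus not above that of all genes. Of 17 tested genes of the citric acid cycle and pyruvate dehydrogenase, a list that holds no member, 7 fell and none rose, with a median of -0.22. Fumarase, Fh1, the next enzyme after complex II, stood at 51.85, 48.94 and 52.10 FPKM in WT and at 43.15 and 33.32 FPKM in knockout (log2 change -0.42, adjusted p = 0.0368). Dld, a subunit shared by several dehydrogenase complexes, had a log2 change of -0.41 (adjusted p = 0.00692), and Dlat, of pyruvate dehydrogenase, -0.40 (adjusted p = 0.0184). The list's medians were -0.23 and -0.26 in knockout replicates 2 and 3. Only 2 of its genes were called without WT replicate 2, and likewise without WT replicate 3. Among 17 genes of electron carriers and other entry points 2 fell, Etfa, of the flavoprotein that hands on electrons from fatty acid oxidation (-0.45, adjusted p = 0.00433), and Pdss1, of ubiquinone synthesis (-0.50, adjusted p = 0.0203). Of this list 1 gene was called without WT replicate 1, WT replicate 2 or knockout replicate 3, and 4 genes without knockout replicate 2. Cytochrome c, Cycs, stood at 47.33, 47.73 and 51.19 FPKM in WT and at 48.05 and 35.44 FPKM in knockout (adjusted p = 0.235).

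Of 27 genes of mitochondrial import, porins and chaperones 6 fell (22.2%, against 13% of all tested genes) and 1 rose, with a median of -0.22. Timm50, of the inner membrane import machinery, had a log2 change of -0.39 (adjusted p = 0.0174), and Timm8b, an import chaperone, -0.37 (adjusted p = 0.0484). Immt, the cristae organiser of the inner membrane, rose from 53.92, 54.29 and 56.69 FPKM in WT to 78.84 and 72.41 FPKM in knockout (log2 change 0.45, adjusted p = 0.00522). No gene of this list was called lower without WT replicate 3, 1 without WT replicate 1, WT replicate 2 or knockout replicate 3, and 17 without knockout replicate 2. Assembly factors of the complexes were largely uncalled: 2 of 7 complex I factors outside the Nduf names (Tmem126b and Acad9, -0.41 and -0.35), none of 4 for complex II (2 at an unadjusted p under 0.05), none of 5 for complex III (1), 2 of 21 for complex IV (Coa4 and Coa5, -0.57 and -0.24) and none of 6 for complex V and its inhibitor (1). Those 4 calls were all lower, and were 28.6% of the complex I list and 9.52% of the complex IV list, against 13% of all tested genes. Leaving out any library but knockout replicate 2 left no call among these complex I factors and 1 among those of complex IV. Without knockout replicate 2 these were 1 and 4, with 1 of complex III and 3 of complex V, and without WT replicate 1 there was 1 higher and 1 lower call for complex II. None of 18 tested regulators of mitochondrial gene expression and biogenesis was called by limma, in the main test or under any alternative run (3 at an unadjusted p under 0.05 in the main test). Among them Nrf1, a factor that binds many respiratory chain promoters, had a log2 change of -0.22 (adjusted p = 0.181), Gabpa, a subunit of another such factor, -0.24 (0.077), and Tfam, the packaging factor of mitochondrial DNA, -0.14 (0.393). Of 20 cell cycle genes 6 fell (30%, against 13% of all tested genes) and none rose, with a median of -0.23. The part of proliferation in the results was not tested.

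The coding length of a gene moved with the difference between the knockout libraries. Members are short genes, with a median coding length of 447 bases. Across the 87 tested members, the deviation from WT correlated with coding length at a Spearman rho of -0.33 in knockout replicate 2 and 0.35 in replicate 3, and the difference of replicate 3 minus replicate 2 at 0.54. These are descriptions over genes of the same libraries. Over 10691 tested genes with a coding length the values were -0.06, 0.25 and 0.45, so the relation in replicate 3 is not limited to respiratory chain genes. The 43 shorter members had medians of -0.02 and -0.43 in replicates 2 and 3, and the 44 longer members -0.11 and -0.30. Of the 15 members called lower 12 were among the longer ones, and the 730 tested genes of all kinds under 447 bases had medians of 0.01 and -0.22. The part of length in the results was not tested.

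**Figure D5:**
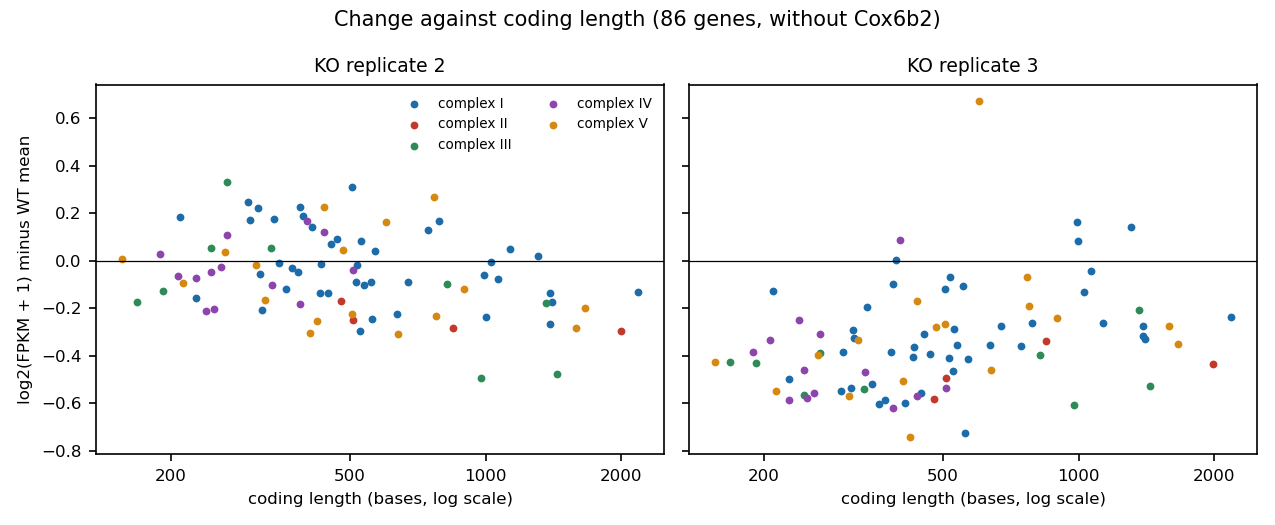
Deviation from the WT mean in log2(FPKM + 1) against coding length in bases on a log axis, for 86 tested genes without Cox6b2, with knockout replicate 2 on the left and replicate 3 on the right. Short genes spread around 0 in replicate 2 and lie mostly between -0.3 and -0.6 in replicate 3, while the longest genes are closer in both panels.

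Promoter windows of the members were searched for 3 motifs, which the choice by symbol did not use. RefSeq windows on GRCm38.p6, from 250 bases before to 50 bases after the start, were matched by gene number for 74 members. The NRF1 motif, spelled GCGCA, then any base (N), then GCGC and searched on both strands like the others, was in at least 1 window of 19 of these 74 members (25.7%), against 12.1% of 8945 tested genes with a window and 4.60% of all windows. The YY1 motif AAGATGGC was in 11 (14.9%), against 5.63% of tested genes. The ETS motif CCGGAAG was in 17 (23.0%), against 21.6% of tested genes, so it was about as frequent as in other expressed genes. Of the 12 members called lower that have a window, 4 hold the NRF1 motif, 2 the ETS motif and 2 the YY1 motif, and of 61 uncalled members 15, 15 and 9 do. Atp5g2, which was not called, holds the NRF1 motif, as do the called Atp5g3 and Sdha. Cox6b2 holds none of the 3 motifs in its window. These are matches of letters, and binding was not measured.

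The NRF1 matches nearest the start of the 4 called members that hold one and of the uncalled Atp5g2 are given below. Each has 10 bases on each side, with the match in capitals. The search itself fixed most of the letters in capitals, so their likeness says nothing about the calls. These stretches lie at chr13:74350231-74350260 (minus) for Sdha, chr9:108936643-108936672 (plus) for Uqcrc1, chr16:91931602-91931631 (minus) for Atp5o, chr2:73911295-73911324 (minus) for Atp5g3 and chr15:102671070-102671099 (minus) for Atp5g2.
Sdha: gcgactcggtGCGCAAGCGCagtctgtcgc
Uqcrc1: cttccttacaGCGCTTGCGCctcagactcc
Atp5o: gctggcgcgcGCGCGTGCGCtctggcgcca
Atp5g3: gagccgcaccGCGCTTGCGCgcccagcccc
Atp5g2: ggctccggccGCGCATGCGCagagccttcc
The Sdha and Atp5g2 matches lie upstream of the start, with their first base at -10 and -42. Those of Uqcrc1, Atp5o and Atp5g3 begin 6, 10 and 13 bases into the first exon, counting the first transcribed base as 1.

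Gene spans of 32 members overlap another annotated gene. Examples are Sdha with the pseudogene Gm16125, Cox7a2 with Tmem30a, Ndufb8 with Gm20538, Atp5a1 with Haus1 and Uqcrh with the pseudogene Gm12854. The sources used here do not say whether counting used strand. Reads of such pairs may therefore be mixed, and reads shared with processed pseudogene copies elsewhere were not tested.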

How the data were processed

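Per the labels' protocols, polyadenylated RNA of the cultured marrow was enriched on oligo(dT) and read on the Illumina HiSeq platform. The authors deposited 1 table with 1 FPKM column for each library used, per the file headers. StringTie 1.2.1, HISAT, edgeR and the build mm10 appear in the submitters' processing notes, with no role. Settings, annotation and strand use: not given in the sources used here. FPKM are scaled within a library, so a few abundant genes can lower all others, and no counting error can be given.

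Tests used limma 3.58.1 in R 4.3.3 with values of log2(FPKM + 1), genotype as the only term, empirical Bayes and a trend of variance on mean level (3 residual degrees of freedom). The scale understates changes of low genes. Genes at 1 FPKM or more in at least 2 libraries were tested, with Benjamini-Hochberg adjustment and a threshold of 0.05. No exact permutation test was run, because 3 against 2 libraries allow only 10 splits, too few for a p under 0.05. The procedure was tested on simulated data with noise that was independent between genes and of equal size in both groups. That simulation therefore did not cover a shift shared by many genes of a library. Coding lengths are the longest annotated coding sequence of GENCODE on GRCm38.p6, found for all 89 members. Named members were the called ones with the largest change (up to 12 a direction), core subunits, the highest and lowest of each complex, tissue isoforms with their ubiquitous partner and members with a 0, and up to 3 called genes of each context list. Cox7a2l, Atp5e, Atp5g2, Atp5sl, Suv420h2, Cycs, Nrf1, Gabpa and Tfam fall outside this rule and were named after their values were seen. The values of 1 member are not reported here. Members and lists were chosen with earlier results of these data known. The 15 alternatives changed the pseudocount, filter, scaling, variance model, libraries, sex covariate or replicate block.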

Additional observations from a re-analysis of the deposited data

How the results depend on the processing

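Main values stand first, then the alternatives that moved them. Of members and of all tested genes, 17.2% and 13% were called lower in the main test. These shares were 10.1% and 9.07% with no filter on low genes and 10.3% and 11.7% with no mean-variance trend. They were 14.9% and 12.9% with a pseudocount of 0.1 and 16.1% and 13.2% with robust empirical Bayes. Members called lower numbered 15, against 9 with no filter on low genes, 7 with median-of-ratios scaling, 6 with upper-quartile scaling, 9 with no mean-variance trend, 3 with sex as a covariate and 3 to 57 with 1 library left out. Called higher was 1 throughout, and 1 to 2 with 1 library left out. The median of -0.223 ranged from -0.363 to -0.063 with 1 library left out. For complex I the 4 lower calls became 2 with a pseudocount of 0.1 or quantile normalization, 1 with no filter, median-of-ratios, upper-quartile or no trend, 0 with sex and 0 to 24 with 1 library left out (median -0.323 to -0.03). For complex II the 3 became 1 with upper-quartile, 0 with sex and 0 to 4 with 1 library left out (median -0.465 to -0.268). For complex III the 2 became 2 to 8, with 0 to 1 higher, with 1 library left out (median -0.429 to -0.125). For complex IV the 1 became 0 with no filter, median-of-ratios, upper-quartile, no trend or sex, 2 with total FPKM scaling and 0 to 10 with 1 library left out (median -0.465 to -0.043). For complex V the 5 became 3 with no filter or no trend, 2 with median-of-ratios or upper-quartile, 1 with sex and 0 to 11, with 0 to 1 higher, with 1 library left out (median -0.334 to -0.119). Over all genes, 1032 higher and 1475 lower became 520 and 792 with sex, and 679 to 978 and 944 to 1681 with 1 library left out. The median of all genes, -0.044, became -0.022 with no filter, -0.002 with median-of-ratios, 0.015 with upper-quartile, -0.02 with total FPKM scaling, 0.007 with quantile normalization and -0.052 to -0.04 with 1 library left out. Higher calls were 41.2% of all calls in the main test and 52.5% with upper-quartile scaling.

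Of the members named in the text, 8 changed sign under an alternative, and none of them was called in the main test. With 1 library left out the log2 change ran from -0.425 to 0.007 for Atp5e, -0.171 to 0.228 for Atp5g2, -0.568 to 0.121 for Cox5a, -0.392 to 0.138 for Cox7a1, -0.598 to 0.145 for Ndufb7, -0.26 to 0.168 for Ndufs3, -0.357 to 0.13 for Ndufv2 and -0.386 to 0.334 for Uqcrh. Atp5g2 was -0.049 and Cox7a1 0.484 with sex, Ndufs3 0.019 with upper-quartile and 0.032 with quantile normalization, and Uqcrh 0.02, 0.039 and 0.058 with median-of-ratios, upper-quartile and quantile normalization. The causes were not tested.

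The labels number the replicates, and 2 and 3 occur in both groups. Deviations of same-numbered libraries correlated at -0.0292 and 0.0985 over 11365 genes. With 2 knockout libraries, their deviations from the group mean mirror each other. These values therefore cannot show whether same-numbered libraries are paired. With a replicate block on those 4 libraries, 7 members were called lower (8.05%, against 10.6% of all tested genes). Of these, 2 were in complex I, 0 in complex IV and 1 in complex V. Depth is unknown, so no limit from counting can be given.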

Other observations

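Ribosomal protein genes, described here as a further set of short and abundant transcripts, differed by compartment. Of 76 tested genes of mitochondrial ribosomal proteins, 9 fell (11.8%, against 13% of all tested genes) and none rose. These proteins translate the mitochondrially encoded subunits. Their genes had a median log2 change of -0.16 and 69 negative values. Their medians were -0.06 in knockout replicate 2 and -0.28 in replicate 3. Of 82 tested genes of cytosolic ribosomal proteins none fell and 1, Rps4l, rose, with a median of 0.08 and 66 positive values. Their medians were 0.24 in replicate 2 and -0.04 in replicate 3. Cytosolic ribosomal protein genes had a median coding length of 453 bases, against 447 for respiratory chain genes. Their median deviation from WT was higher in both knockout libraries than that of the respiratory chain genes. They were also more abundant, with medians of 1071 to 1174 FPKM in the WT libraries against 102 to 103 FPKM. The part of length or level was not tested. In both sets replicate 3 was lower than replicate 2 for most genes, 66 of 76 and 80 of 82, against 5117 of 11365 tested genes. The difference between the sets was not tested.

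The erythroid markers were mixed. Of 9 tested 4 fell, led by Hba-a1 at 43.32, 57.75 and 54.06 FPKM in WT and 32.60 and 24.52 FPKM in knockout, and 1 rose, Gata1, which mast cells also express, at 39.58, 42.11 and 43.72 FPKM in WT and 73.40 and 64.66 FPKM in knockout. Of the B, T and NK cell markers 2 passed the filter, and Nkg7 fell (log2 change -0.59, adjusted p = 0.00969).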
